A study of Mus musculus with 19 samples.

Results

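Tumors of the Math1 lineage in mouse cerebellum were compared with granule neuron progenitors (GNPs), the dividing cells of that lineage. The comparison used 8 of the 19 arrays of the series, 4 titled GNP tumor and 4 titled GNP, and was read over 11741 genes outside the X and Y chromosomes, of 12148 genes that passed a filter on dim signal. All mice were C57BL/6. GNP tumors were tumor cells of Math1-CreERT2/Ptch1C/C mice, in which the Math1 (Atoh1) promoter drives a Cre recombinase that needs tamoxifen and both Ptch1 alleles are conditional. GNPs were Math1+ neuronal progenitors, with no Cre or Ptch1 allele named. Beside these stood 3 arrays of CD133+, Lin- cerebellar progenitors (NSCs), 4 of tumor cells of Nestin-CreERT2/Ptch1C/C mice (NEP tumors) and 4 of Nestin+ neuronal progenitors (NEPs). Each cell type was taken straight from the cerebellum, without culture or treatment. The labels name a marker for GNPs and NSCs and none for the tumor cells, and they give no age, sex, tamoxifen schedule or pooling of animals. Whether the arrays of a group came from separate animals is not stated; p-values therefore reflect the spread among arrays, which may be technical.

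Granule neuron progenitors divide in the outer layer of the young cerebellum under Sonic hedgehog, then leave the cell cycle and migrate inward as granule neurons. Ptch1, the Sonic hedgehog receptor, holds the pathway in check, and its loss leaves Gli transcription factors active and can lead to medulloblastoma. Such tumors also hold macrophages, microglia, glia and vessels. In RNA of a mixed sample, more cells of a type and more RNA per cell cannot be told apart.

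Values are log2 probe set signals, and a difference is GNP tumor minus GNP on that scale, with the standard error (SE) of a limma fit over all 5 groups. A gene was called at a Benjamini-Hochberg adjusted p under 0.05. The median probe set lay at 2.54 to 2.55 on the GNP tumor arrays and at 2.44 to 2.49 on the GNP arrays, and a gene with a group mean below the array median is called dim there. No 2 arrays held identical values, and the number of arrays limits the precision. The groups came from different runs: poly-A spike-ins averaged 8.69 ± 0.26 (SD, n = 8) in the run of the GNP and NEP arrays and 6.50 ± 0.27 (n = 11) in that of the tumor and NSC arrays. Actin signal at the 3' end minus that at the 5' end, which grows as RNA breaks down, was 0.839 ± 0.022 in GNP tumors and 0.522 ± 0.0176 in GNPs (SD, n = 4 each), a difference of 0.318 (exact permutation test, two-sided, p = 0.0286, the smallest that 4 against 4 arrays allow). NEP tumors of the same run had 0.419 to 0.538, and NSCs 0.636 to 0.657. Run, RNA quality and group cannot be told apart between GNP tumors and GNPs. Within the second run, NSCs give the only other set of cells without a tumor, and their values are set beside those of the GNPs throughout.

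Other arrays stood apart. The median signal of the monocyte and macrophage genes was 7.73 and 7.81 on NEP arrays 1 and 2, against 3.40 and 2.53 on NEP arrays 3 and 4. This spread enters the variance that the fit shares between groups, so counts of immune genes are also given from a fit without the NEP arrays, which was added after the data were seen. Among the GNP arrays, array 4 was lowest for several immediate early genes and highest for several glial genes.

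Of the 11741 genes, 2177 (18.5%) were called higher in GNP tumors and 3675 (31.3%) lower, and 709 in each direction were called with a difference of at least 2-fold (6.04% higher, 6.04% lower). In the fit without the NEP arrays 23.0% were called higher and 35.3% lower. The median difference over all genes was -0.08. With each array centred on the median of the genes tested, that median moved to 0.05, and the higher share of the calls was 54.7% in place of 37.2%, so differences near 0 have no settled sign. On that scaling 26.0% of all genes were called higher and 21.5% lower. With the actin 3' to 5' difference as a covariate of the fit (the actin covariate), which itself differs between the groups, 6.53% of all genes were called higher and 12.5% lower. Against NSCs, 22.2% of the genes were called higher in GNP tumors and 25.3% lower. The comparison with NSCs shares the tumor arrays. Its values, with adjusted p-values or calls for some genes, are given, and overlap with the calls against GNPs was not tested.

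The immune genes were counted apart from the others, over 7 lists of microglia, macrophage, leukocyte, granulocyte, antigen presentation, chemokine and interferon genes. Of 101 immune genes tested, 36 (35.6%) were called higher by at least 2-fold and 1 lower. The corresponding counts were 15 and 0 of 39 vascular and stromal genes, 20 and 3 of 45 genes of other neural cells, and 637 (5.51%) and 705 (6.10%) of 11553 other genes. Immune genes made up 16 of the 49 genes that were higher by at least 16-fold, and other neural genes 6, while 27 lay outside every marker class. Of the 36 immune genes, 27 were dim in GNPs, so their folds are folds of array signal over background. A gene dim in GNPs could pass the filter through the arrays where it was bright, so immune shares and medians depend on that filter. Without it, 15 of 38 monocyte and macrophage genes were called higher (median 1.30) and 4 of 19 microglia genes (median 0.72). For pan-leukocyte and lymphoid genes the count was 8 of 28 (median 0.24), and over all genes 2317 of 17567. It was 10 of 24 for complement and chemokine genes (median 0.83) and 7 of 16 for antigen presentation genes (median 0.72). Interferon genes gave 11 of 23 (median 0.48) and granulocyte genes 3 of 13 (median 0.04). Called lower were 1 interferon gene, 2 granulocyte genes and 3818 of all genes. A gene outside the marker classes is not thereby shown to come from tumor cells.

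**Figure D1:**
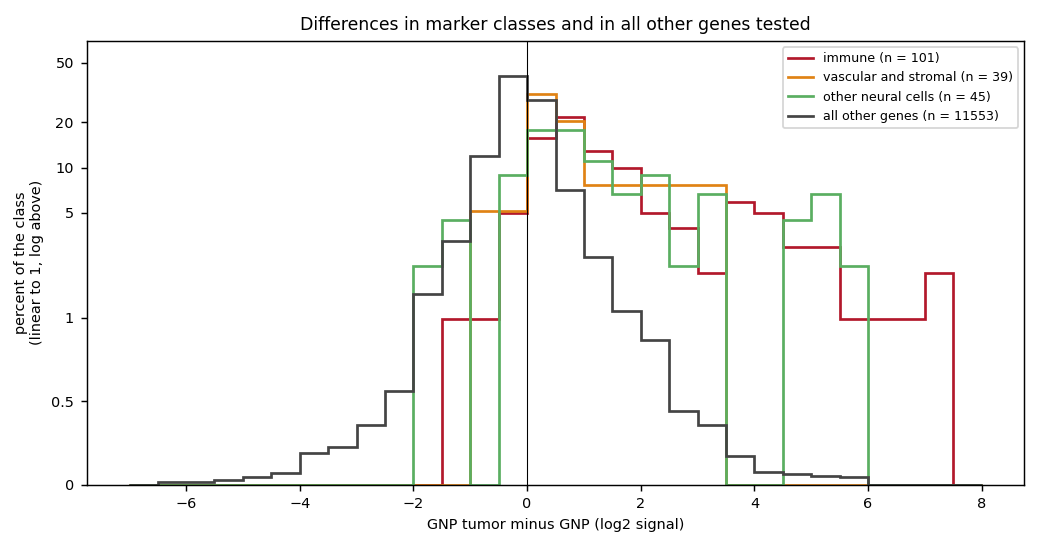
Share of each class (y axis, percent, linear to 1 and logarithmic above) by difference in log2 signal, GNP tumor minus GNP (x axis, bins of 0.5), for 101 immune genes, 39 vascular and stromal genes, 45 genes of other neural cells and 11553 other genes. The marker classes extend to the right, with 36 of 101 immune genes called at least 2-fold higher and 1 lower, while the other genes spread to both sides.

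The immune gene with the largest rise was Lyz1, which encodes a lysozyme. It had log2 signals of 9.67, 9.70, 9.58 and 9.59 in GNP tumors, against 2.08, 2.08, 2.29 and 2.13 in GNPs. The groups were far apart on every array, with GNPs at background. The difference was 7.49 (SE 0.98, adjusted p = 7.93e-06), a 180.2-fold difference of array signal. NSCs, in the run of the tumors, had 6.74, 6.09 and 6.09, so the difference from NSCs was 3.33 (adjusted p = 0.016). Over 20 alternative settings the difference of Lyz1 from GNPs ranged from 4.92 to 13.66. Whether its probe set shares signal with that of Lyz2 was not tested.

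Lyz2, the lysozyme of myeloid cells, had 8.37, 8.54, 8.46 and 8.45 in GNP tumors, against 2.32, 2.29, 2.85 and 2.29 in GNPs. The groups did not overlap, and the difference was 6.01 (SE 1.02, adjusted p = 1.15e-04). Ctss, cathepsin S of antigen-presenting cells, differed by 7.16 and Mpeg1, a pore-forming protein of macrophages, by 5.83. Over the 31 monocyte and macrophage genes tested, 14 were called higher and 0 lower, with a median difference of 2.06, against 18.5% of all genes called higher and a median of -0.08. In the fit without the NEP arrays 28 were higher and 1 lower, against 23.0% and 35.3% of all genes. The list's median on each array was 4.53, 4.67, 4.54 and 4.80 in GNP tumors, against 2.18, 2.29, 2.22 and 2.16 in GNPs, so all 4 tumors carried the signal at similar strength. NSCs had 3.25, 2.89 and 3.01. The site GAGGAAGT of the myeloid factor PU.1 was in promoter windows of 3 of 24 genes of the list (12.5%), against 3.69% of all genes with a window.

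Genes tied to particular macrophage states were among those that rose. Arg1, arginase, had 5.87, 5.32, 5.22 and 5.45 in GNP tumors, against 1.42, 1.22, 1.22 and 1.32 in GNPs. NSCs averaged 1.21, NEP tumors 1.26 and NEPs 1.26, so a signal above background was seen in GNP tumors alone among the 5 groups. Chil3, a chitinase-like protein of myeloid cells, averaged 7.24 in GNP tumors and 1.52 in GNPs, with 2.28 in NEP tumors. Clec7a, the beta-glucan receptor, differed by 4.94, Lgals3, galectin 3, by 4.87 and Gpnmb, a glycoprotein of lipid-laden macrophages, by 3.92. Cd68, a lysosomal protein of macrophages, averaged 4.76 in GNP tumors and 2.30 in GNPs, and missed the threshold (adjusted p = 0.0598), as did Adgre1, an adhesion receptor of macrophages, at 3.90 and 2.65 (adjusted p = 0.251). Both were called in the fit without the NEP arrays (adjusted p = 2.82e-08 and 4.57e-06).

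Genes of microglial identity were called in part. Csf1r, the receptor for colony-stimulating factor 1, had 6.47, 6.53, 6.56 and 6.80 in GNP tumors, against 2.03, 2.39, 2.22 and 2.56 in GNPs. The groups did not overlap (difference 4.29, SE 1.13, adjusted p = 0.00452). NSCs had 6.67 on average, level with the tumors (difference -0.08, adjusted p = 0.964). Where all probe sets of Csf1r were averaged, the difference was 2.13 and was not called (adjusted p = 0.095).

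P2ry12, a purine receptor that marks resting microglia, was dim in both groups at 1.73 in GNP tumors and 1.33 in GNPs (adjusted p = 0.746). Cx3cr1, the fractalkine receptor, averaged 3.84 in GNP tumors and 2.96 in GNPs, and Aif1, which encodes Iba1, 3.38 and 1.63. Neither passed the threshold (adjusted p = 0.475 and 0.106), although the arrays of the groups did not overlap. In the fit without the NEP arrays P2ry12, Cx3cr1 and Aif1 were called (adjusted p = 0.0052, 0.00233 and 3.77e-07). Tmem119 was too dim to be tested. Of 13 microglia genes tested, 4 (30.8%) were called higher and 0 lower, against 18.5% of all genes higher. The 4 were Tyrobp, an adaptor of immune receptors, Csf1r, the transcription factor gene Sall1 and Sparc, a matrix protein that glia and vessels also make. The list's median difference was 0.88. In the fit without the NEP arrays 12 of the 13 were higher and 0 lower, against 23.0% of all genes higher.

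Class II antigen presentation separated the tumors from both sets of cells without a tumor. H2-Aa, a class II alpha chain, had 8.88, 8.88, 9.02 and 8.90 in GNP tumors, against 2.12, 2.28, 1.83 and 1.85 in GNPs and 2.38, 2.11 and 2.08 in NSCs. Of these groups only the tumors were above background, and the difference from GNPs was 6.90 (SE 0.57, adjusted p = 3.47e-08) and from NSCs 6.73 (adjusted p = 1.56e-07). Cd74, the invariant chain that class II molecules are loaded on, averaged 8.04 in GNP tumors, 2.86 in GNPs and 2.74 in NSCs. H2-Ab1 and H2-Eb1, class II beta chains, differed by 4.10 and 3.91 from GNPs. The class I genes H2-K1 and H2-D1, which most cells express, differed by 0.94 each. In all, 7 of 12 tested genes of the list were called higher and 0 lower (median 0.94), against 18.5% of all genes higher. The fit without the NEP arrays called 10 higher and 1 lower, against 23.0% and 35.3% of all genes.

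The Y box, bound by the factor NF-Y and part of the class II promoter, was searched as CTGATTGG on both strands of promoter windows of 300 bases. It stood in the windows of 5 of 9 genes of this list (55.6%), against 4.70% of 27025 genes. Those 5 were H2-Aa and H2-Eb1 of class II, H2-K1 and H2-D1 of class I, and Psmb9, which is of neither class. In H2-K1 and H2-D1 the letters were read on the other strand. The share is therefore not one of class II promoters alone. The stretches around it are shown for a class II alpha and a class II beta chain, from RefSeq, build GRCm38.p6, 5' to 3' on the gene's strand, with the Y box in capitals. H2-Aa lies at chr17:34287827-34287914 on the minus strand, with the Y box at positions -51 to -44 relative to its start site, and H2-Eb1 at chr17:34305765-34305852 on the plus strand, with the Y box at -62 to -55.
H2-Aa: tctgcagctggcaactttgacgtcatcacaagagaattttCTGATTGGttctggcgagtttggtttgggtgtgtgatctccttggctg
H2-Eb1: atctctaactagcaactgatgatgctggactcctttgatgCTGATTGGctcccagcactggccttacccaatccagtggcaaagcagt

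Complement and chemokine genes rose as well. C1qa and C1qb, chains of the first complement component made by macrophages and microglia, averaged 6.69 and 6.85 in GNP tumors and 1.51 and 1.81 in GNPs (adjusted p = 0.00185 and 0.00155). In NSCs the 2 genes had 4.36 and 4.84, and their differences from GNP tumors were not called (adjusted p = 0.153 and 0.195). Cxcl2, a neutrophil-attracting chemokine, averaged 5.71 in GNP tumors and 1.09 in GNPs, with 1.23 in NSCs. Of 15 tested genes, 8 were called higher and 0 lower (median 1.49), against 18.5% of all genes higher. All 15 were called higher in the fit without the NEP arrays, against 23.0% of all genes. Among 14 interferon response genes, 9 were higher and 1 lower (median 0.63), against 18.5% and 31.3% of all genes. The largest rise was that of Ifitm3, a membrane protein that blocks viral entry, with a difference of 4.33. With the actin covariate 3 of the 14 were called higher, against 6.53% of all genes.

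No tested gene of T cells, B cells or cytotoxic cells was called, which does not show that such cells were absent. Ighm of B cells and Prf1 of cytotoxic cells differed by 0.21 and -0.21. Cd3e, Cd3g and Cd3d of T cells, Cd79a, Cd79b and Ms4a1 of B cells, and Nkg7 and Gzma of cytotoxic cells were too dim to be tested. Ptprc (CD45), carried by leukocytes of every kind, had 5.25, 5.18, 5.15 and 5.11 in GNP tumors, against 1.55, 1.22, 1.57 and 1.22 in GNPs. Its groups did not overlap (difference 3.78, SE 0.94, adjusted p = 0.00295). Of 11 pan-leukocyte and lymphoid genes tested, 4 were called higher and 0 lower, against 18.5% of all genes higher. The fit without the NEP arrays called 9 higher and 0 lower, against 23.0% of all genes higher. The granulocyte genes S100a8 and S100a9, which form calprotectin, differed by 3.13 and 1.70, and both were higher still in NSCs, at 7.18 and 5.65, against 4.89 and 3.33 in GNP tumors.

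**Figure D2:**
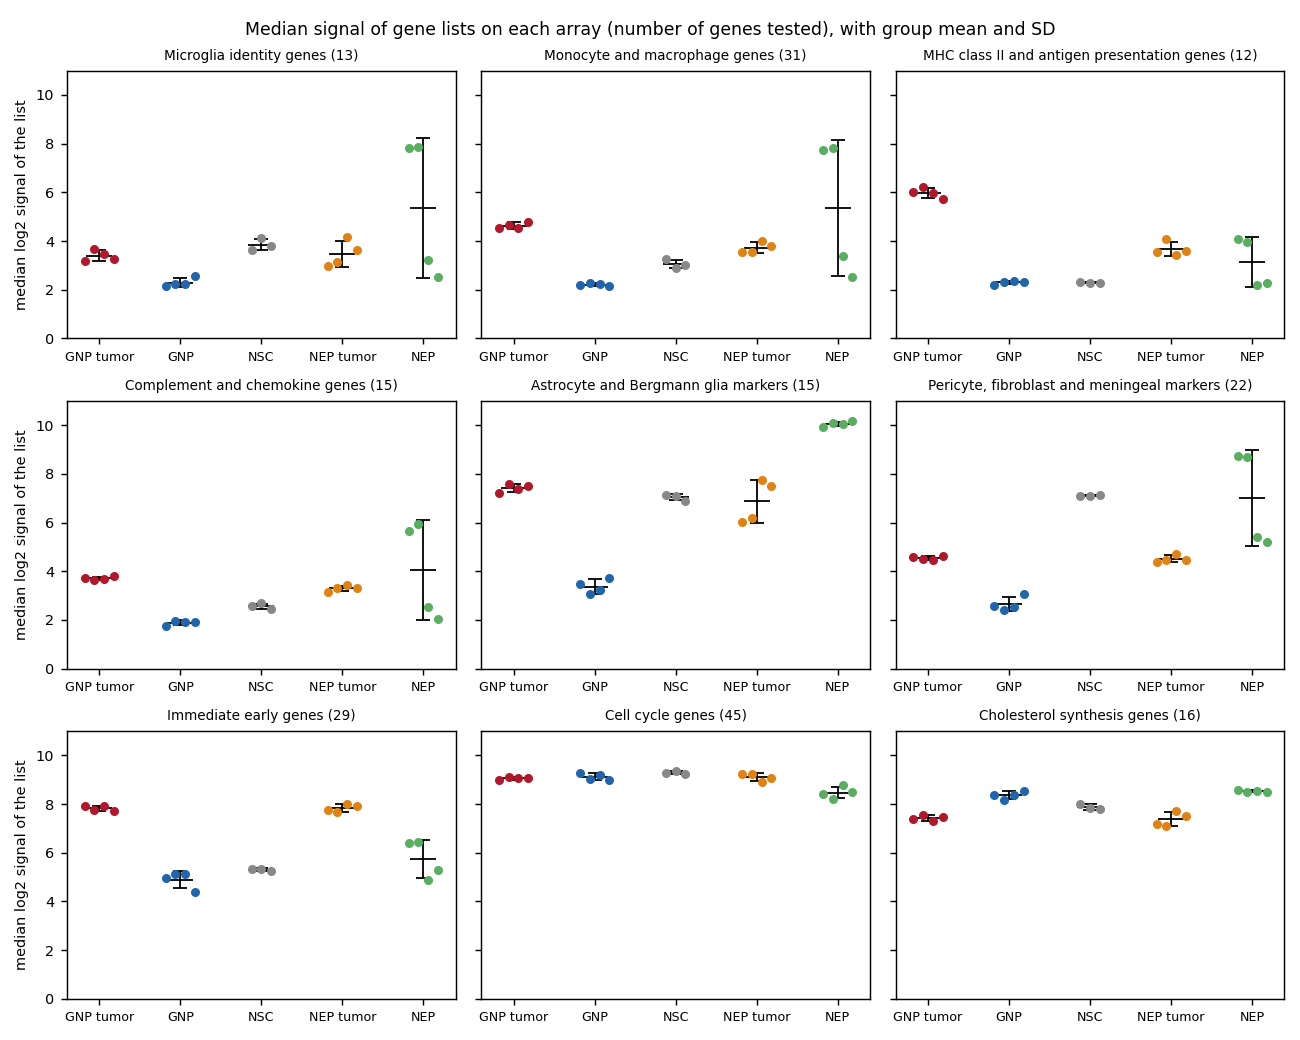
Median log2 signal of 9 gene lists (y axis) on each array (points) by group (x axis), with the group mean and SD in black and the number of genes tested in brackets. The 4 GNP tumors lie close together in each panel; the macrophage median is 4.53 to 4.80 in GNP tumors and 2.16 to 2.29 in GNPs, and on NEP arrays 1 and 2 it is 7.73 and 7.81.

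Glial genes rose with the immune genes, and the part that other cells in the tumor samples had in either was not tested. S100b, a calcium-binding protein of astrocytes, had 7.66, 7.57, 7.69 and 7.52 in GNP tumors, against 1.78, 1.90, 1.72 and 1.61 in GNPs, with no overlap (difference 5.86, SE 0.23, adjusted p = 3.37e-12). NSCs averaged 4.03. Aqp4, the water channel of astrocyte end-feet, had 8.27, 8.31, 8.21 and 8.15 in GNP tumors, against 2.09, 2.10, 2.12 and 4.67 in GNPs, where array 4 stood apart. NSCs were at 9.36, above the tumors by a difference that was not called (adjusted p = 0.129). Gfap, the astrocyte filament protein, differed by 3.11 from GNPs and by 2.00 from NSCs, and both differences were called.

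The counts of the glial and stem cell lists stand against 18.5% of all genes called higher and 31.3% lower. Of 15 astrocyte and Bergmann glia genes tested, 13 were called higher and 1 lower, with a median of 2.91. The exception was Gja1, the astrocyte gap junction protein connexin 43, at 8.12 in GNP tumors, 9.46 in GNPs and 10.62 in NSCs. Against NSCs the median difference of the list was -0.21. Of 12 oligodendrocyte lineage genes, 6 were higher and 0 lower (median 1.35), led by Olig1, a factor of that lineage, at 7.98 in GNP tumors, 2.76 in GNPs and 7.66 in NSCs. Mog and Mag, proteins of mature myelin, were too dim to be tested. Of 17 stem cell and radial glia genes, 13 were higher and 3 lower (median 1.13). With the actin covariate 8 of the 15 astrocyte genes and 4 of the 17 stem cell genes were called higher, against 6.53% of all genes. Sox2, a stem cell factor, averaged 8.28 in GNP tumors and 5.50 in GNPs. Nes, which encodes the filament protein Nestin, averaged 5.27 in GNP tumors and 3.49 in GNPs (difference 1.77, adjusted p = 4.29e-05), and was not called with that covariate (adjusted p = 0.0834).

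Some vascular and stromal genes were higher than in GNPs. Of 22 pericyte, fibroblast and meningeal genes, 11 were called higher and 0 lower (median 1.20), and of 17 endothelial genes 5 and 0 (median 0.41), against 18.5% of all genes higher. Of these, 10 of the 22 and 0 of the 17 were called higher with the actin covariate. Col3a1, a fibrillar collagen chain, averaged 7.31 in GNP tumors and 3.99 in GNPs, against 10.96 in NSCs. Dcn, decorin of fibroblasts, averaged 5.89 and 2.45, against 9.15 in NSCs. Both were lower in GNP tumors than in NSCs (adjusted p = 9.59e-04 and 0.00975). The endothelial genes Pecam1, Tek and Tie1 were dim in both groups. Hba-a2 and Hbb-b2, the globin genes tested, averaged 3.09 and 3.56 in GNP tumors and 3.26 and 3.38 in GNPs and were not called.

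Members of the Hedgehog pathway, which drives the proliferation of these progenitors, moved in both directions. Ptch1 had 11.24, 11.24, 11.18 and 11.18 in GNP tumors, against 10.38, 10.17, 10.27 and 10.32 in GNPs, with no overlap (difference 0.93, SE 0.10, adjusted p = 1.49e-06). Ptch1 is both the targeted gene and a transcriptional target of the pathway. Where its probe sets lie relative to the deleted part is not known here, so this signal does not check the deletion. With the actin covariate the value was 0.49 and was not called (adjusted p = 0.169). Hhip, a membrane protein that binds Hedgehog ligands and a pathway target, averaged 4.88 in GNP tumors and 2.22 in GNPs (difference 2.66, SE 0.19, adjusted p = 4.85e-09), with 4.36 in NSCs.

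Gli1, the transcriptional activator most used as a readout of the pathway, had 8.21, 8.54, 8.52 and 8.61 in GNP tumors, against 7.76, 8.10, 7.94 and 8.35 in GNPs. The groups overlapped and the difference of 0.43 was not called (SE 0.26, adjusted p = 0.182), while the fit without the NEP arrays called it (adjusted p = 0.0248). Gli2, an activator, fell by 0.58 (SE 0.13, adjusted p = 0.0011). Gli3, which acts mainly as a repressor, had 3.36, 3.09, 3.09 and 2.92 in GNP tumors, against 5.95, 5.95, 6.09 and 5.47 in GNPs, without overlap (difference -2.75, SE 0.16, adjusted p = 4.24e-10). NSCs had 6.75. Smo, the signal transducer, and Sufu, a Gli inhibitor, differed by -0.18 and -0.12 and were not called.

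Targets that carry the growth response were mixed. Mycn averaged 9.64 in GNP tumors and 9.75 in GNPs, and Ccnd2, cyclin D2, 11.99 and 12.07, neither called. Ccnd1, cyclin D1, was higher by 0.38 (SE 0.09, adjusted p = 0.00206), and was not called with the actin covariate (adjusted p = 0.296). Igf2, a growth factor that Hedgehog signalling induces, averaged 6.72 in GNP tumors and 4.69 in GNPs (adjusted p = 0.0218), against 10.40 in NSCs. Of 9 Hedgehog receptors and regulators, 2 were called higher and 1 lower (median -0.12), and of 13 Gli factors and targets 4 and 4 (median 0.04), shares near those of all genes. The Gli site GACCACCCA, searched on both strands, was in promoter windows of 0 of 8 and 0 of 7 genes of these lists. It was in those of 0.289% of all genes with a window.

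Genes that define the granule lineage split. Atoh1, the factor that specifies these progenitors, had 9.38, 9.45, 9.44 and 9.44 in GNP tumors, against 8.77, 8.96, 8.80 and 8.89 in GNPs. The arrays did not overlap, yet the difference of 0.57 (SE 0.48) was not called in the fit over all groups (adjusted p = 0.344). It was called in the fit without the NEP arrays (adjusted p = 9.59e-06). Barhl1, a homeobox factor downstream of Atoh1, gave the same picture, at 9.32 in GNP tumors and 8.75 in GNPs (adjusted p = 0.342, and 2.63e-05 without the NEP arrays). With the actin covariate both differences turned negative and were not called, at -1.08 for Atoh1 and -0.78 for Barhl1.

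Other genes with high signal in GNPs were far lower in the tumors. Mfap4, a matrix protein of elastic fibres, had 4.19, 4.32, 4.62 and 4.47 in GNP tumors, against 10.53, 10.94, 10.78 and 10.76 in GNPs. NSCs had 10.66, 10.81 and 10.67, so the tumors alone were low among these 3 groups. The difference from GNPs was -6.35 (SE 0.25, adjusted p = 3.37e-12) and that from NSCs -6.32 (adjusted p = 1.1e-11). Unc5c, a netrin receptor of migrating granule cells, had 2.91, 2.76, 2.32 and 2.72 in GNP tumors, against 9.07, 9.04, 9.03 and 9.04 in GNPs. It was low in every tumor (difference -6.37, SE 0.37, adjusted p = 3.79e-10). Pax6, a factor of granule cells, averaged 8.33 in GNP tumors and 10.83 in GNPs, with 10.34 in NSCs. Cxcr4, the chemokine receptor that keeps progenitors at the surface, was higher by 1.01 (SE 0.16, adjusted p = 7.59e-05). Of 17 progenitor genes, 1 was called higher and 5 lower (median -0.35), no larger a share lower than the 31.3% of all genes. In the fit without the NEP arrays 4 were higher and 10 lower, against 23.0% and 35.3% of all genes. The share lower was therefore above that of all genes in that fit only.

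Genes of neurons that have left the cycle were called lower more often than higher, as were all genes. Of 23 tested, 3 were called higher and 9 (39.1%) lower (median -0.57), against 18.5% of all genes higher and 31.3% lower. The 3 were Robo2, Gabra6 and Nfib, with differences of 1.35, 1.24 and 0.38. Tubb3, Map2 and Snap25 differed by 0.17, 0.23 and 0.04 and were not called. Against NSCs the list's median difference was 0.31. With each array centred on its median, 6 of the 23 were called higher and 9 lower (median -0.44), against 26.0% and 21.5% of all genes. Cadps2, which primes vesicles for release, averaged 5.74 in GNP tumors and 10.43 in GNPs (difference -4.69, SE 0.46, adjusted p = 2.83e-07). Kcnd2, a potassium channel, averaged 3.27 and 7.59, and Syt1, a calcium sensor of synaptic vesicles, 4.45 and 8.17.

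Of 29 axon guidance and adhesion genes tested, 14 were called lower and 6 higher (median -0.62), against 31.3% and 18.5% of all genes. The actin covariate left 9 lower and 2 higher. Slit2, a repellent ligand, averaged 2.15 in GNP tumors, 5.57 in GNPs and 5.66 in NSCs. Sema3d, a semaphorin, averaged 2.65 in GNP tumors and 6.08 in GNPs, and Efnb2, an ephrin, 4.17 and 7.42. Sema3e, a semaphorin outside that list, moved the other way, with 8.12, 8.37, 8.23 and 8.32 in GNP tumors, against 2.29, 2.43, 2.52 and 2.53 in GNPs (difference 5.82, SE 0.11, adjusted p = 1.59e-16). NSCs had 2.46, 2.74 and 2.55, and NEP tumors averaged 8.96, so Sema3e was low in every group without a tumor. Of 21 ion channel and receptor genes, 9 were lower and 5 higher (median -0.32), and with the actin covariate 4 and 3.

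**Figure D3:**
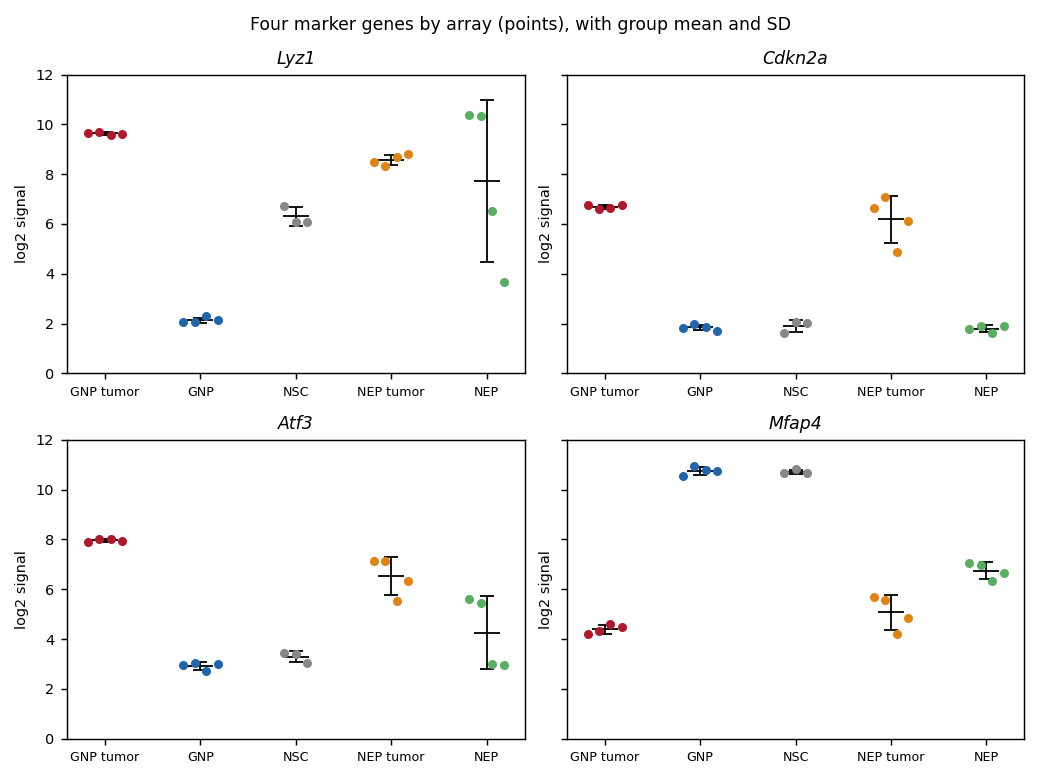
Log2 signal (y axis) of Lyz1, Cdkn2a, Atf3 and Mfap4 on each array (points) by group (x axis), with group mean and SD in black. Cdkn2a is near 1.85 in GNPs and 1.91 in NSCs and 6.58 to 6.77 in the 4 GNP tumors, Atf3 is 7.90 to 8.03 in GNP tumors and 2.71 to 3.04 in GNPs, and Mfap4 is 4.19 to 4.62 in GNP tumors and 10.53 to 10.94 in GNPs.

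Several inhibitors of cyclin-dependent kinases were higher in the tumors. Cdkn2a encodes the kinase inhibitor p16Ink4a and, from another first exon, p19Arf, which blocks Mdm2. It had 6.77, 6.58, 6.63 and 6.76 in GNP tumors, against 1.83, 1.98, 1.87 and 1.72 in GNPs and 1.64, 2.05 and 2.03 in NSCs. Every array without a tumor was at background, and the difference from GNPs was 4.84 (SE 0.30, adjusted p = 9.99e-10). NEP tumors averaged 6.19. Cdkn2b, its neighbour, which encodes p15Ink4b, averaged 4.96 in GNP tumors and 2.48 in GNPs, and Cdkn1a, which encodes p21, 7.19 and 5.17. Of 10 inhibitors and pocket proteins, 6 were called higher and 0 lower (median 0.54), against 18.5% of all genes higher, and with the actin covariate 3 were higher. Rb1, the retinoblastoma protein, differed by 0.10 and was not called.

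The 2 start sites of Cdkn2a in RefSeq give different promoter windows. E2F sites, searched as TTTCCCGC, TTTGGCGC and TTTCGCGC on both strands, stood in one of them, at positions -99 to -92 from the start site, and not in the other. The upstream window belongs to the start site farther from the shared exons, and the same stretch of both windows is shown, from GRCm38.p6 on the minus strand, with the E2F site in capitals. The stretch with the site lies at chr4:89294671-89294758 and the one without at chr4:89282244-89282331. Which of the 2 transcripts gave the array signal was not tested.
Cdkn2a, upstream start site: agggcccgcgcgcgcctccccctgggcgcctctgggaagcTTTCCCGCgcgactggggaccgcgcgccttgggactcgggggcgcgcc
Cdkn2a, downstream start site: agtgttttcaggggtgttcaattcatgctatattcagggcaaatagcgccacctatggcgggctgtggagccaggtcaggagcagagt

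Genes that p53 can induce were higher in part. Of 21 tested, 9 were called higher and 1 lower (median 0.52), against 18.5% of all genes higher, and with the actin covariate 5 were higher. Bbc3, the death factor Puma, had 6.73, 6.56, 6.53 and 6.52 in GNP tumors, against 4.09, 4.09, 4.06 and 4.27 in GNPs, without overlap (difference 2.46, SE 0.11, adjusted p = 2.67e-11). Plk2 and Gadd45b, stress-induced regulators of growth, differed by 2.62 and 3.06. Mdm2, the ligase that degrades p53, differed by 0.62 (SE 0.08, adjusted p = 7.93e-06), and was not called with that covariate (adjusted p = 0.108). Zmat3, Sesn1 and Rrm2b, also p53 targets, differed by -0.04, -0.09 and 0.02 and were not called. Of 14 apoptosis regulators of the Bcl2 family list, 4 were higher and 3 lower (median 0.01). Hrk, a death factor of that family in neurons, had 7.70, 7.64, 7.58 and 7.93 in GNP tumors, against 2.18, 2.79, 2.37 and 2.88 in GNPs. Its groups were well apart (difference 5.16, SE 0.24, adjusted p = 2.80e-11), and NSCs averaged 3.01. Casp9, the initiator caspase of that pathway, fell by 1.28 (SE 0.09, adjusted p = 5.92e-09).

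Cell cycle genes changed little in size. Of 45 tested, 2 were called higher and 16 lower (median -0.17), against 31.3% of all genes lower. With each array centred on its median the counts were 2 and 9 and the list's median was -0.04, and with the actin covariate they were 2 and 5. Mki67, Ccna2 and Cdk1, markers of dividing cells, averaged 11.06, 10.36 and 9.71 in GNP tumors and 11.14, 10.42 and 9.73 in GNPs and were not called. E2f2, a factor that drives S phase, averaged 5.80 in GNP tumors and 7.03 in GNPs (adjusted p = 5.71e-08), and E2f7, a repressor of the same family, 7.26 and 8.33. Cdk6, a cyclin D kinase, had 11.42, 11.43, 11.45 and 11.41 in GNP tumors, against 9.74, 9.61, 9.69 and 9.76 in GNPs. It rose by 1.73 (SE 0.12, adjusted p = 2.82e-09) while most other members of the list differed by less than 0.5. Of 33 DNA repair genes, 1 was higher and 8 lower (median -0.24), led by Exo1, an exonuclease, with a difference of -0.80.

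E2F sites stood in promoter windows of 12 of 38 genes of the cell cycle list (31.6%), against 2.12% of all genes with a window. The stretches around the site are shown for E2f2 and E2f7, the genes of the list with the largest falls. E2f2 is at chr4:136172273-136172323 on the plus strand, with the site at positions 40 to 47 from the start, and E2f7 at chr10:110745201-110745288 on the plus strand, with the site at -198 to -191, read on the other strand.
E2f2: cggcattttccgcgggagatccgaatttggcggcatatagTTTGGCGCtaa
E2f7: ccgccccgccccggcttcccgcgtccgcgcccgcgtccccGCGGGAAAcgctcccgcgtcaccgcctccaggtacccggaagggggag

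Immediate early genes, which cells switch on within minutes of a stimulus and also during tissue dissociation, were higher almost throughout. Of 29 tested, 27 were called higher and 0 lower (median 1.66), against 18.5% of all genes higher. The list's median was 7.90, 7.76, 7.92 and 7.70 in GNP tumors, against 4.96, 5.12, 5.12 and 4.38 in GNPs and 5.35, 5.32 and 5.26 in NSCs. NEP tumors, of the same run as NSCs, had 7.68 to 8.02. Atf3, a stress-induced factor, had 7.90, 8.02, 8.03 and 7.94 in GNP tumors, against 2.95, 3.04, 2.71 and 3.00 in GNPs. Its groups were far apart (difference 5.05, SE 0.50, adjusted p = 3.53e-07), and NSCs averaged 3.30.

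Fos, a subunit of AP-1, had 12.41, 12.41, 12.43 and 12.44 in GNP tumors, against 11.51, 11.63, 11.54 and 9.64 in GNPs, with array 4 far below the other GNPs. Fosb and Klf4, also induced factors, differed by 3.44 and 3.62, and GNP array 4 was again lowest, at 3.92 and 3.58. Without GNP array 4 the number of immediate early genes called higher was also 27, with a median of 1.63. Of 20 heat shock and unfolded protein genes, 12 were higher and 0 lower (median 0.55), against 18.5% of all genes higher. The largest rises were those of Hspa1a and Hspa1b, inducible chaperones, with differences of 4.03 and 3.83. These 2 genes are near-identical copies, and their probe sets may share signal. Under the actin covariate 8 of the 20 and 20 of the 29 immediate early genes were called higher, against 6.53% of all genes. Hspa8, the constitutive chaperone, differed by less than 0.01.

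The core ACGTCA of the cyclic AMP response element was searched after the promoter of Atf3 had been seen. It stood in windows of 9 of 25 genes of the immediate early list (36.0%), against 8.37% of all genes with a window. The full element TGACGTCA, which contains the core, stood in those of 1 of 25 genes (4.00%, all genes 2.03%), and the AP-1 site TGACTCA in none (all genes 5.95%). The core is shown in capitals for Atf3, at chr1:191183296-191183381 on the minus strand, positions -8 to -3 from the start, and for Dusp5, a phosphatase of the list, at chr19:53529049-53529134 on the plus strand, -56 to -51.
Atf3: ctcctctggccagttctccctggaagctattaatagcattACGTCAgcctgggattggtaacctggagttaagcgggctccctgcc
Dusp5: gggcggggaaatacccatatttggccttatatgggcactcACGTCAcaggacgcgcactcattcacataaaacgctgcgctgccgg

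Cholesterol synthesis genes were lower almost throughout. Of 16 tested, 14 were called lower and 0 higher (median -1.13), against 31.3% of all genes lower. The list's median was 7.37, 7.57, 7.31 and 7.47 in GNP tumors, against 8.38, 8.19, 8.37 and 8.55 in GNPs, without overlap, and 8.02, 7.86 and 7.78 in NSCs. Sqle, squalene epoxidase, had 7.40, 7.67, 7.36 and 7.55 in GNP tumors, against 8.88, 8.98, 9.03 and 9.17 in GNPs (difference -1.52, SE 0.15, adjusted p = 2.45e-07). Fdps, which makes farnesyl diphosphate, averaged 7.62 and 9.36, and Srebf2, the factor that switches these genes on, 6.19 and 7.55. Insig1 and Hsd17b7 were not called, at -0.27 and 0.12. Against NSCs the list's median difference was -0.70. The sterol element core CACCCCAC was in windows of 1 of 13 genes (7.69%, all genes with a window 3.30%).

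Glycolytic genes moved in both directions, with 6 of 19 tested called higher and 6 lower (31.6% each, median -0.04). Over all genes the shares were 18.5% higher and 31.3% lower, so the lower share was near that of all genes. With the actin covariate 3 were higher and 2 lower, against 6.53% and 12.5% of all genes. Hk2, a hexokinase that Hedgehog signalling induces in granule progenitors, had 9.79, 9.78, 9.75 and 9.66 in GNP tumors, against 6.95, 6.54, 6.71 and 7.95 in GNPs, without overlap (difference 2.71, SE 0.25, adjusted p = 1.31e-07). Hk1, the constitutive hexokinase, averaged 5.85 in GNP tumors and 7.07 in GNPs. Tpi1, triose phosphate isomerase, had 7.31, 7.51, 7.53 and 7.54 in GNP tumors, against 10.02, 10.08, 10.06 and 10.04 in GNPs, a fall of the whole group, with NSCs at 9.62.

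Growth factor pathways were mixed, and their counts stand against 18.5% of all genes higher and 31.3% lower. Of 11 insulin-like growth factor genes, 5 were called higher and 4 lower. Igfbp5, a binding protein of these factors, had 6.50, 6.73, 6.41 and 6.48 in GNP tumors, against 11.01, 10.92, 10.99 and 10.78 in GNPs and 10.61, 10.56 and 10.67 in NSCs. Of these groups only the tumors were low, and the difference from GNPs was -4.39 (SE 0.13, adjusted p = 1.04e-13). Igfbp4 fell by 2.61 and Igfbp7 and Igfbp3 differed by 3.45 and 2.20. In the Notch pathway 7 of 21 genes were higher and 7 lower; Jag1, a ligand, averaged 7.91 in GNP tumors and 5.03 in GNPs, and Hes6, a Hes family inhibitor, 8.20 and 9.12. Among 17 BMP and Id genes 4 were higher and 4 lower, and Chrd, the BMP antagonist chordin, averaged 3.58 in GNP tumors and 7.20 in GNPs. Of 17 Wnt genes 3 were higher and 2 lower, and of 24 chromatin genes 7 were higher and 4 lower. With the actin covariate 2 Notch genes were higher and 3 lower, 1 BMP gene was higher and 3 lower, and 0 chromatin genes were higher and 4 lower.

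**Figure D4:**
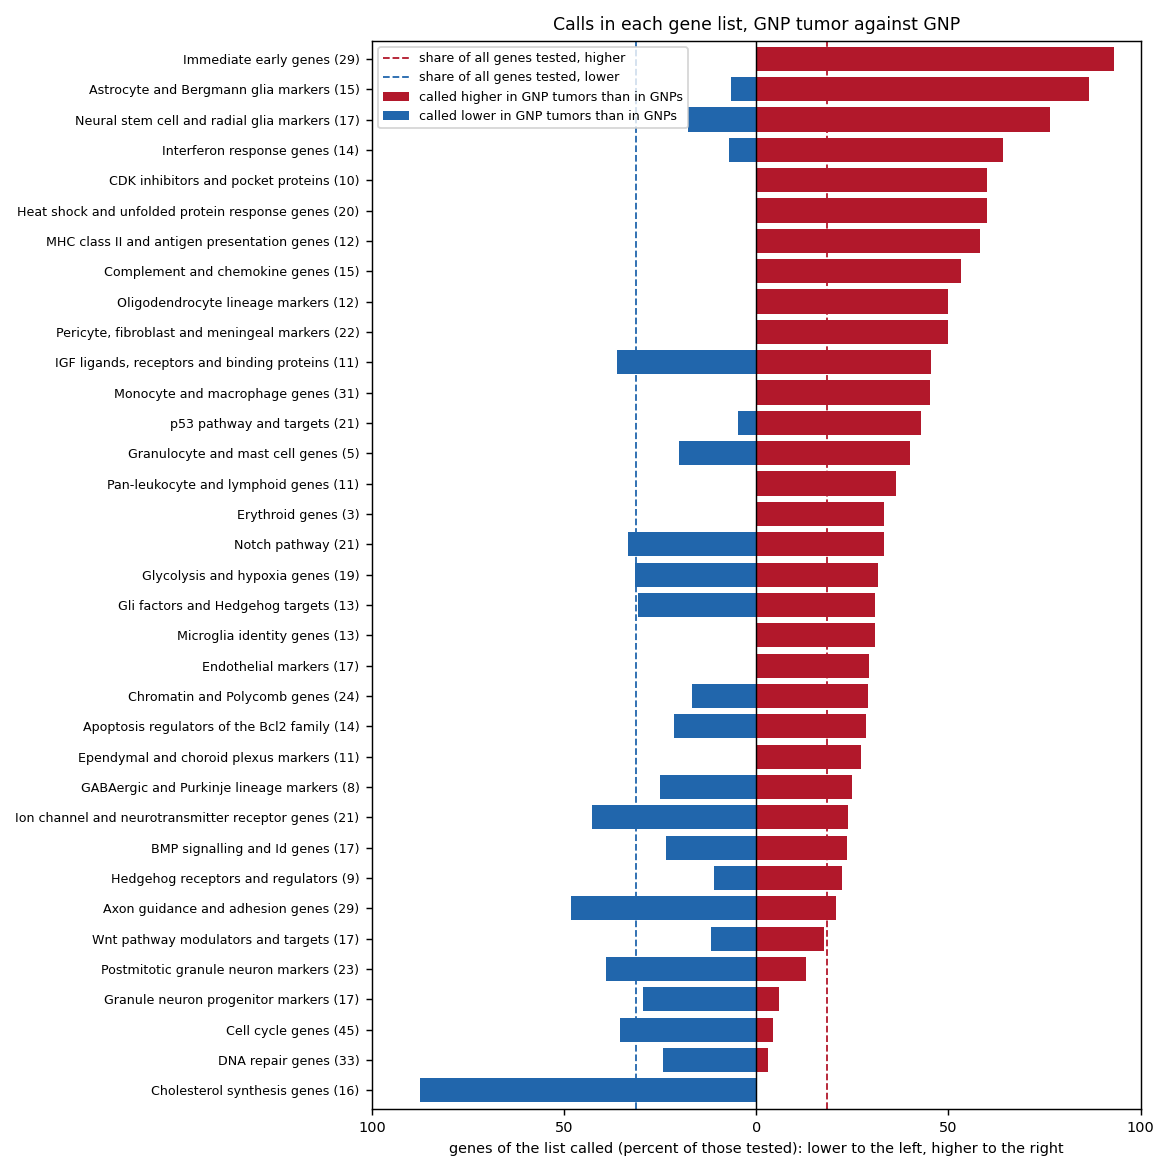
Percent of the tested genes of each of 35 lists called higher (red, right) or lower (blue, left) in GNP tumors than in GNPs, with the number tested in brackets and the shares over all genes as dashed lines (18.5% higher, 31.3% lower). Immediate early genes have the largest share called higher, 27 of 29, and cholesterol synthesis genes the largest share called lower, 14 of 16.

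Outside the marker classes, the largest rises included genes of varied function. Sox1, a neural stem cell factor, had 9.0, 9.04, 9.15 and 8.95 in GNP tumors, against 3.50, 3.41, 3.55 and 3.97 in GNPs, well apart (difference 5.43, SE 0.14, adjusted p = 2.02e-14). NSCs averaged 7.29 and NEPs 9.49. Olig3, a factor of the rhombic lip from which granule cells arise, had 8.41, 8.58, 8.57 and 8.47 in GNP tumors, against 4.11, 4.22, 4.10 and 2.22 in GNPs and 2.47, 2.67 and 2.67 in NSCs. It differed by 4.85 (SE 0.31, adjusted p = 1.52e-09). NEP tumors averaged 7.20 and NEPs 1.87, so Olig3 was above 7 in tumors only.

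Mroh2a, a HEAT repeat gene, had 8.43, 8.58, 8.42 and 8.55 in GNP tumors, against 2.29, 2.79, 2.32 and 2.70 in GNPs (difference 5.97, SE 0.12, adjusted p = 4.45e-16). The other groups were all low, with NSCs at 2.48, NEP tumors at 4.21 and NEPs at 2.19. Smoc1, a secreted matrix protein that acts on BMP signalling, averaged 8.77 in GNP tumors and 3.13 in GNPs, with 5.70 in NSCs. Slc6a11, a GABA transporter of glia, averaged 7.05 in GNP tumors and 2.65 in GNPs, and NSCs stood level with the tumors at 7.28 (difference -0.23, adjusted p = 0.203). Srgn, the granule proteoglycan of blood cells, and Mt1, a metallothionein of glia and other cells, were also among the largest rises, with differences of 5.40 and 4.52. Tmem163, a zinc-transporting membrane protein, differed by 5.93 and Efhd1, a mitochondrial calcium-binding protein, by 4.84.

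A few genes of general function had low signal in both tumor groups and far higher signal in every group without a tumor. Mtx2, metaxin 2 of the outer mitochondrial membrane, had 2.48, 2.69, 2.65 and 2.79 in GNP tumors, against 8.17, 7.82, 8.09 and 8.16 in GNPs and 8.19, 8.20 and 8.15 in NSCs. Grb10, an imprinted adaptor that damps insulin receptor signalling, had 2.79, 2.93, 2.95 and 2.86 in GNP tumors, against 8.19, 8.19, 8.09 and 8.35 in GNPs. Rps4l, a ribosomal protein S4-like gene, had 1.74, 1.61, 1.98 and 1.79, against 6.90, 6.83, 6.73 and 6.83. Their differences were -5.41, -5.32 and -5.04 (SE 0.11, 0.08 and 0.14, adjusted p = 4.06e-16, 1.55e-17 and 3.93e-14). Over 20 alternative settings the difference of Grb10 ranged from -5.36 to -2.03, so its size depends on the processing. That of Mtx2 stayed between -5.49 and -5.27 and that of Rps4l between -5.11 and -4.55. NEP tumors averaged 2.59, 2.65 and 1.85 for Mtx2, Grb10 and Rps4l, against 7.63, 9.0 and 6.77 in NEPs. NSCs, of the tumors' run, averaged 8.18, 7.90 and 7.0.

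Further falls of this size were in Col9a1, a collagen chain of cartilage, Ucma, a matrix protein of cartilage, Prickle2, of planar cell polarity, Kcnd3, a potassium channel, and Diras2, a small GTPase. Col9a1 had 2.93, 2.61, 2.87 and 2.83 in GNP tumors, against 8.27, 8.31, 8.44 and 8.72 in GNPs, and its groups were far apart (difference -5.62, SE 0.19, adjusted p = 4.68e-13). The differences of Ucma, Prickle2, Kcnd3 and Diras2 were -4.90, -4.88, -4.67 and -4.39. All 5 were also lower in GNP tumors than in NSCs, by differences from -5.08 for Col9a1 to -3.66 for Prickle2.

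**Figure D5:**
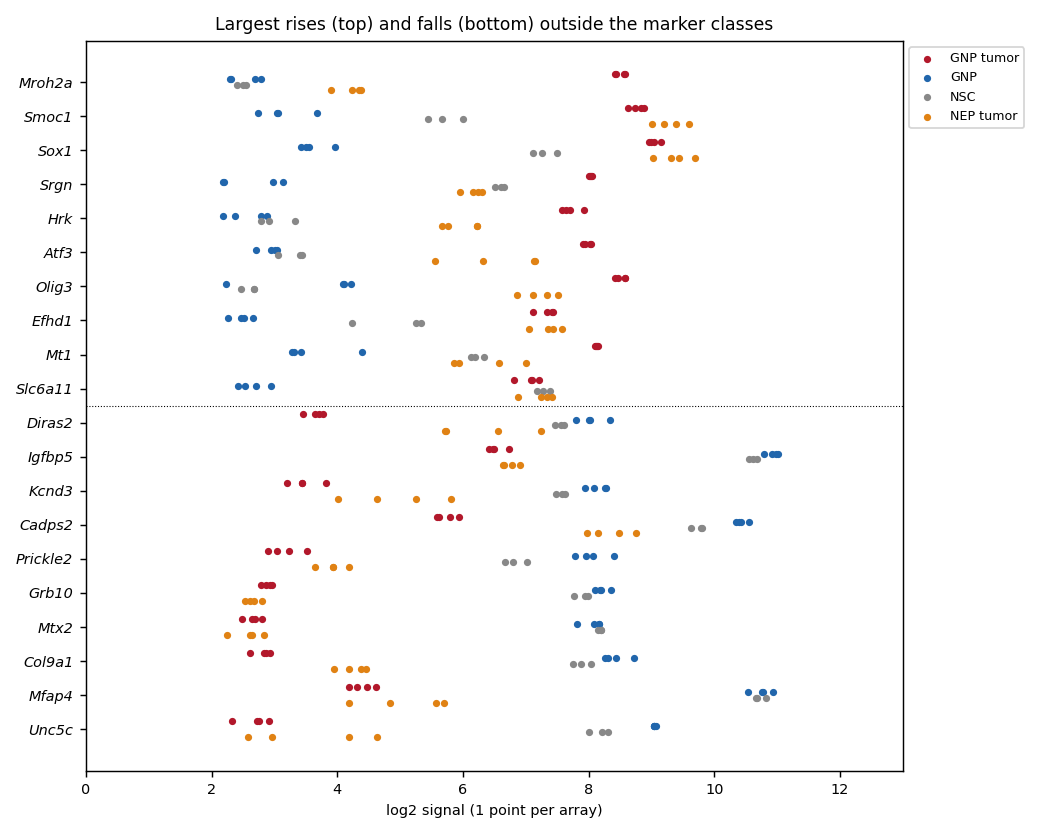
Log2 signal (x axis, 1 point per array) of the 10 genes with the largest rises (above the dotted line) and the 10 with the largest falls (below it) outside the marker classes, among genes with means above the array median in GNP tumors and GNPs, shown for GNP tumors, GNPs, NSCs and NEP tumors. Mtx2 and Grb10 are below 3 on every tumor array and near 8 in GNPs and NSCs, while Slc6a11 averages 7.05 in GNP tumors and 7.28 in NSCs.

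Whether a difference was larger in the Math1 lineage than in the Nestin lineage was tested as GNP tumor minus GNP, less NEP tumor minus NEP, in which no array is shared. Over all genes this contrast was called higher for 2953 (25.2%) and lower for 4303 (36.6%), with a median of -0.15. It was called for Mfap4, whose difference was -6.35 in the Math1 lineage and -1.68 in the Nestin lineage (adjusted p = 7.94e-09), and for Atf3, at 5.05 and 2.28. For Cdkn2a the difference was 4.84 in the Math1 lineage, against 4.39 in the Nestin lineage, and the contrast was not called (0.44, SE 0.43, adjusted p = 0.378). For Lyz1 it was 7.49 and 0.84, and NEP arrays ranged from 3.67 to 10.37 for this gene.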

How the data were processed

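RNA (100 ng) was labelled with a whole-transcript kit and hybridised to Affymetrix Mouse430 2 arrays, per the labels' protocols. The authors deposited 1 log2 signal per probe set and array, made by RMA, and their processing notes also name Affymetrix Expression Console; versions and any centring were not given in the sources used here. Arrays were grouped by their titles.

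Of 45101 probe sets, 64 were controls; 34945 had 1 gene symbol, 932 several and 9160 none. Symbols were updated by gene ID, which matched 34741. The brightest probe set stood for each of 18193 genes. Genes at or above the array median on at least 3 arrays (12148) were tested with limma 3.58.1 in R 4.3.3 (lmFit, eBayes, 5 group means, 19 arrays, Benjamini-Hochberg, adjusted p under 0.05); 407 genes of X and Y were fitted and not counted. The fit was tested on simulated data.

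The report names the genes with the largest called rises and falls without overlap, the same outside the marker classes, called members of the gene lists, and a set of fixed genes; list members that were not called, NSC-level comparisons and the genes Hk1, H2-K1 and H2-D1 were chosen after their values were seen. The comparison, its members and its 35 gene lists were chosen with earlier results of these data known. Alternatives were other probe set summaries, filters, scalings, fits, an actin covariate, a replicate block and leaving out each array; the fits without the NEP arrays and without NEP arrays 1 and 2 were added after seeing the data. Same-numbered GNP tumor and GNP arrays did not deviate together, so the numbers were not taken as pairs. Promoters are RefSeq windows of 300 bases around a start site.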

Additional observations from a re-analysis of the deposited data

Results flagged for a closer look

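Among the 51 named genes tested, 102 groups of 4 arrays were checked for an array far from the other 3, and 5 stood out; chance gives about 1 in 20. On GNP tumor array 3, H2-Aa was 9.02, with the next at 8.90. On GNP array 3, Lyz2 was 2.85, with the next at 2.32. On GNP array 4, Olig3 was 2.22, with the next at 4.10, Mt1 was 4.40, with the next at 3.42, and Sfrp1, a Wnt antagonist, was 10.36, with the next at 10.75.

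The difference between the lineages (GNP tumor minus GNP, less NEP tumor minus NEP) was called by limma for 43 of the 51 genes, 24 with a positive and 19 with a negative value. Members of the immune lists among the 24 were Csf1r at 7.0, Ctss at 6.89, Lyz1 at 6.65, Mpeg1 at 6.4 and Lyz2 at 5.38. So were Ptprc at 4.39, H2-Aa at 3.88, Aif1 at 3.40 and P2ry12 at 3.27. Srgn at 5.76 and Chil3 at 4.99, genes of blood and myeloid cells, are outside those lists. NEP arrays 1 and 2 carried high immune signal. Without them Csf1r was 4.12, Lyz1 4.02, Ptprc 1.74, H2-Aa 2.27, Aif1 0.94 and P2ry12 0.63. In the same fit Ctss was 4.17, Mpeg1 3.08, Lyz2 2.50, Chil3 5.02 and Srgn 4.47.

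The other genes with a positive value were Mt1 at 6.74, Efhd1 at 5.98, Slc6a11 at 5.65, Sox1 at 5.56, Smoc1 at 5.13, S100b at 4.85, Hhip at 4.57, Mroh2a at 3.95, Hrk at 3.75, Atf3 at 2.77, Tmem163 at 2.13, Nes at 1.43 and Grb10 at 1.03. Those with a negative value were Ccnd2 at -0.35, Sema3e at -0.64, Cdkn1a at -0.86, Gli1 at -1.30, Mycn at -1.33, Ccnd1 at -1.52, Gli2 at -1.59, Unc5c at -1.92, Prickle2 at -2.34, Igfbp5 at -3.11, Kcnd3 at -3.71, Ucma at -4.02, Col9a1 at -4.08, Diras2 at -4.35, Mfap4 at -4.68, Sfrp1 at -4.84, Barhl1 at -5.20, Atoh1 at -5.95 and Cadps2 at -8.12. These values compare changes, not levels. Grb10 changed by -5.32 in the Math1 and -6.35 in the Nestin lineage, and Sema3e by 5.82 and 6.46. Mt1, Efhd1, Slc6a11 and Sox1 changed by -2.22, -1.13, -1.25 and -0.13 in the Nestin lineage. For Atoh1, Barhl1 and Cadps2 the NEP arrays averaged 3.95, 3.63 and 4.91, below the GNP arrays. Atf3 was 1.5 without NEP arrays 1 and 2. In the same fit Tmem163 at 0.35 and Ccnd2 at -0.19 were not called, and 0 of the 43 changed sign.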

How the results depend on the processing

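Over 8 counts of genes called, leaving out each of the 8 arrays compared in turn moved none by over 1.5 times, and the total of genes called ranged from 5235 to 5510, against 5852 with all arrays. With the actin 3' to 5' difference as a covariate, 767 genes were called higher and 1468 lower in GNP tumors than in GNPs, and 1424 higher than in NSCs. For the difference between the lineages 1599 genes were called with a positive and 1969 with a negative value. That covariate differs between the groups compared, so it also takes up part of any group difference. Array weights gave 3318 genes higher, with an incomplete convergence of the weights. A filter at the 75th percentile, which tests fewer genes, gave 445 genes lower by at least 2-fold and 1734 with a positive difference between the lineages.

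Signs turned for 7 named genes, none of which was called with all arrays or under the setting that turned it: Ccnd2 was 0.0205 over all its probe sets and 0.0439 with centred arrays, where Mycn was 0.0182 and Actb 0.0576, and with the actin covariate Gli1 was -1.20, Atoh1 -1.08, Sfrp1 -0.43 and Barhl1 -0.78. The cause was not tested. Fits over other arrays or with array weights called Atoh1, Barhl1, Gli1 or Sfrp1 higher. Over all alternatives 969 values of the 51 named genes kept direction and call, 34 became called and 5 lost the call: Csf1r over all its probe sets, and Ptch1, Ccnd1, Mdm2 and Nes with the actin covariate.

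With the replicate number as a block, over the 8 arrays compared, 6757 genes were called, against 6940 without it. The deviations of same-numbered GNP tumor and GNP arrays correlated at 0.112, -0.025, 0.0866 and -0.0002 across genes. Arrays with unlike numbers gave values from -0.239 to 0.255. These values show no pairing by number, and they cannot exclude one.

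Of 3700 called genes with several probe sets, 311 (8.41%) had another probe set called the other way. Genes dim in 1 group have folds limited by background.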
